A study of Mus musculus with 2 samples.

Results

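The 10 genes described here are the guanylate-binding proteins Gbp2, Gbp3, Gbp6 and Gbp7, the immunity-related GTPases Iigp1, Igtp and Irgm1, the transcription factor Irf1, and the CXCR3 ligands Cxcl9 and Cxcl10. They were taken by symbol from the 24346 genes listed in each library, and all 10 were found and passed the expression minimum. RNA-seq was performed on whole omentum, abdominal fat that carries the lymphoid clusters called milky spots, 5 days after injection of diphtheria toxin (DT). WT mice and Postn-DTR mice were compared. The latter are heterozygous for a DT receptor cassette knocked into the first coding exon of Postn, so that cells using the Postn promoter, among them the Aldh1a2+ fibroblastic reticular cells (FRCs) of milky spots, are killed by the toxin. Both genotypes received DT. The Postn-DTR line was made in C57BL/6 zygotes, and WT littermates served as controls where feasible. Postn is also active in mesenchymal cells of other organs, which may express the receptor too, and the age and sex of the mice were not given in the sources used here. Each genotype was represented by 1 library, and whether it came from a single mouse or a pool was not stated.

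Interferon-gamma is made mainly by T and NK cells. It binds the IFNGR1 and IFNGR2 receptor, which signals through Janus kinases, and Irf1 and other first targets with GAS sites in their DNA are switched on. IRF1 in turn binds interferon-stimulated response elements (ISREs) of further genes. Among these are the guanylate-binding proteins (GBPs) and immunity-related GTPases (IRGs), which gather on vacuoles that hold intracellular microbes, and the chemokines CXCL9 and CXCL10, which draw T and NK cells bearing the receptor CXCR3. Omental macrophages, dendritic cells, endothelium and stroma can all respond to this cytokine.

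Because the 10 genes were grouped as interferon-gamma targets, the DNA before their start sites was read first. RefSeq windows of the 250 bases before a gene's start (GRCm38.p6) were found for 8 of the 10 genes, without Gbp6 and Iigp1. They were searched on both strands for the GAS sequence TTCNNNGAA, for the ISRE core GAAANNGAAA and for the kappaB consensus, the site of NF-kappaB. A GAS match was present for 3 of the 8 genes (Irf1, Igtp and Gbp7) and an ISRE core for 6 of them (Cxcl10, Gbp2, Gbp3, Gbp7, Igtp and Irgm1). For Gbp2 and Irgm1 the cores lay before the RefSeq start but inside the gene span annotated in GENCODE. A kappaB match was present for 2, Irf1 and Cxcl10. These counts are per gene, with a match in any of its windows, and Gbp3 and Irf1 each had a further window without a match. The shares over the mouse are per window instead. Of all 32851 such windows, from 27025 genes, 7.02% held the GAS sequence, 2.98% the ISRE core and 3.90% the kappaB consensus. Cxcl9 held none of the 3 in this window. A match describes letters, not a bound site. The 5 windows below were chosen because each ends at or before the gene's start in both RefSeq and GENCODE, and because they show each kind of match and the gene without any. They are printed in the direction of transcription, with the matches in capitals. The windows are chr11:53769764-53770013 on the plus strand for Irf1, chr11:58199306-58199555 on the plus strand for Igtp, chr3:142530086-142530335 on the plus strand for Gbp7, chr5:92348890-92349139 on the minus strand for Cxcl10 and chr5:92328080-92328329 on the minus strand for Cxcl9.
Irf1: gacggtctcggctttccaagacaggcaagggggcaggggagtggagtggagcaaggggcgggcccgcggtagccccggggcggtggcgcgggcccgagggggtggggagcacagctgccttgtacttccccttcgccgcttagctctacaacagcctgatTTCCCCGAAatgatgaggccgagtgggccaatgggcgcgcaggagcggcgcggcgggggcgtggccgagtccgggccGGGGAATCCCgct
Igtp: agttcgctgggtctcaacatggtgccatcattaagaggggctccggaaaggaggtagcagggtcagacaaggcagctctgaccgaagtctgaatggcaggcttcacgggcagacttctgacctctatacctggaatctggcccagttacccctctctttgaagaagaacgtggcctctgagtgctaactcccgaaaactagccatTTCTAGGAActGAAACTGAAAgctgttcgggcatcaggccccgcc
Gbp7: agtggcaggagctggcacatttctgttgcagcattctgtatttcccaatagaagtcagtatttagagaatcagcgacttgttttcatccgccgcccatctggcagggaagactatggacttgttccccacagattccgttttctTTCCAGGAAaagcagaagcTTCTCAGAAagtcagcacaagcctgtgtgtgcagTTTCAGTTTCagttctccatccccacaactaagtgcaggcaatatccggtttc
Cxcl10: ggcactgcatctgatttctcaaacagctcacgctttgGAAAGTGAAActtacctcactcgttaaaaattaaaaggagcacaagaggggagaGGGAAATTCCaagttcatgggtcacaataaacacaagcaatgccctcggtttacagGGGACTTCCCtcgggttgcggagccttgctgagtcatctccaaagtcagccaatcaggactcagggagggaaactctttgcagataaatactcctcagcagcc
Cxcl9: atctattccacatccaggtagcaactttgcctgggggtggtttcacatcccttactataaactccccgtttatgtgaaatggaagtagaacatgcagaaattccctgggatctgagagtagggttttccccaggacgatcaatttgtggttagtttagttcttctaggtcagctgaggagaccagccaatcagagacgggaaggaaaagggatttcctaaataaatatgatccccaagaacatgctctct

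In Irf1 the GAS match lay at bases -90 to -82 from the start and the kappaB match at -13 to -4. In Igtp a GAS match (-45 to -37) was followed by an ISRE core (-34 to -25) with no overlap. Gbp7 held a pair of GAS matches, at -106 to -98 and -87 to -79, and an ISRE core at -53 to -44. Cxcl10 held its ISRE core at -213 to -204 and kappaB matches at -159 to -150 and -103 to -94. Among the windows not printed, the ISRE cores of Gbp3 and those of Irgm1 overlapped each other.

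Levels were deposited as FPKM, fragment counts scaled to transcript length and to the mapped fragments of the library. From the steps of the lowest values, the denominators were estimated at about 23400000 fragments in WT and 24000000 in Postn-DTR, so an FPKM of 1 in a 2 kb transcript stands for about 41.7 and 43.2 reads. The change of a gene is the difference of log2(FPKM + 1), Postn-DTR minus WT, and a gene was called when it reached 2-fold. The added 1 pulls the changes of weakly expressed genes towards 0. Folds and percentages of single genes are ratios of FPKM. With 1 library a genotype there was no replicate error and no test, and the intervals below cover counting error at the estimated depth only. The comparison covered 13127 genes, those whose FPKM averaged 1 or more over both libraries. Of these, 3.12% were at least 2-fold lower in Postn-DTR and 3.88% at least 2-fold higher, so that 55.4% of all calls were higher, and the median change was 0.02. Postn, of which Postn-DTR mice keep 1 allele without the insertion, fell from 58.3 to 16.2 FPKM (change -1.79). Fat and mesothelial genes were abundant in both libraries, with Adipoq at 955.2 and 635.9 and Upk3b at 211.6 and 181.9. Of the 5 adipocyte markers, 4 had a change below 0, 1 was above (Fabp4, at 4879 and 6519) and 0 were called. Of the 4 mesothelial markers, 2 were below 0 and 2 above, with 1 called lower (Lrrn4, at 62.7 and 29.2). These lists summed to 95.7% and 94.1% of WT. A set of 35 pancreatic acinar genes took up 2.40% of the summed FPKM of the WT library and 0.00324% of that of the Postn-DTR library. The FPKM summed over all genes came to 542190 for WT and 671882 for Postn-DTR, or 123.9% of WT. When both libraries were set to equal totals without the acinar genes, the all-gene median shifted by -0.30 and 28.7% of all calls were higher. This shift came mainly from the unequal totals, beside which the acinar share was small. Differences of that size therefore depend on scaling.

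In Postn-DTR omentum Cxcl9 fell, while Irf1, the 7 GTPases and Cxcl10 stayed under the 2-fold threshold and no gene of the 10 was called higher. Thus 1 of 10 was at least 2-fold lower, where 3.12% of all genes compared were, and 0 of 10 at least 2-fold higher, where 3.88% were. The changes of the 10 genes ran from -1.03 to 0.11 with a median of -0.30. A change below 0 was seen in 8 of the 10 genes and in 48.1% of all genes compared. Summed over the 10 genes, the FPKM came to 318.3 for WT and 288.4 for Postn-DTR, or 90.6% of WT. In whole tissue, fewer cells of a type and less RNA per cell cannot be told apart.

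**Figure D1:**
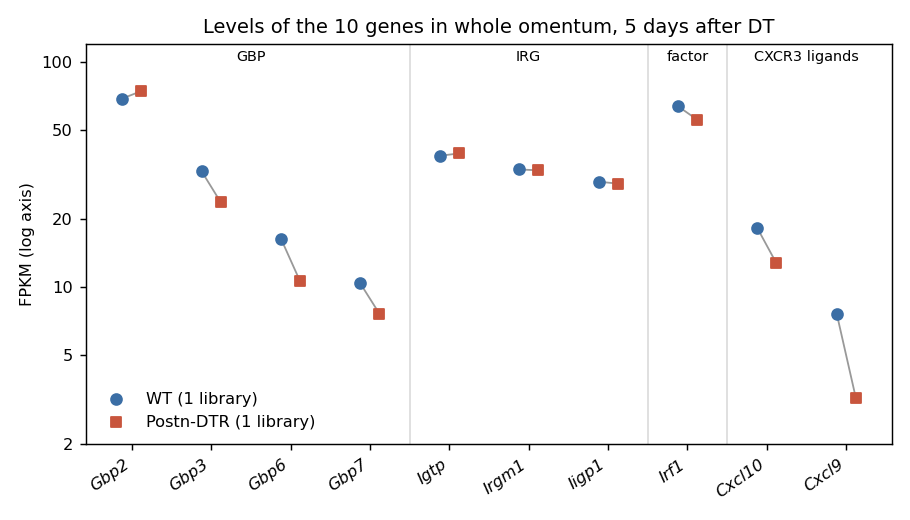
FPKM of the 10 genes (log axis) in the WT library (circles) and the Postn-DTR library (squares), grouped by role, with a line joining the values of a gene and no error bars because each genotype had 1 library. Gbp2 was the most abundant in both libraries (68.7 and 74.1) and Cxcl9 the least (7.60 and 3.22).

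The order of the levels was nearly kept. Gbp2 and Irf1 were the most abundant in both libraries, followed by Igtp and Irgm1, and Cxcl10, Gbp6, Gbp7 and Cxcl9 were in this order the 4 lowest. The fifth and the sixth place, held by Gbp3 and Iigp1 in WT, were exchanged in Postn-DTR. Of the FPKM summed over the 10 genes, Gbp2 made up 21.6% for WT and 25.7% for Postn-DTR, and Cxcl9 2.39% and 1.12%. Whether neighbours in this order differ beyond the spread between mice could not be measured.

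Cxcl9 showed the greatest difference of the 10 genes. Cxcl9 (ENSMUSG00000029417, chr5:92321347-92328079 on the minus strand, GRCm38), the ligand most dependent on interferon-gamma, was at 7.60 FPKM in the WT library and 3.22 in the Postn-DTR library. It fell 2.36-fold (95% counting interval 2.001 to 2.79, from about 475 and 208 estimated reads), a change of -1.03, and 2.92% of the genes compared had a more negative change. This call sat at the edge of the threshold. It was lost with a pseudocount of 5, where the change was -0.62, and Cxcl9 dropped out when the expression minimum was raised to 10. Cxcl10 (ENSMUSG00000034855, chr5:92346638-92348889 on the minus strand), which is also induced by type I interferons and through NF-kappaB, was at 18.3 FPKM in WT and 12.8 in Postn-DTR. Its Postn-DTR level was 69.9% of WT (counting interval 59.7 to 82.1%), a change of -0.49 that was not called. Both genes lie in the same locus, and of the pair only Cxcl10 had motif matches in the window printed above. For each unit of Cxcl10 FPKM there were 0.417 units of Cxcl9 in WT and 0.253 in Postn-DTR. The third ligand gene of this locus, Cxcl11, is annotated as a polymorphic pseudogene. It was listed at 0.0310 and 0.0300, about 1 estimated read in each library. Cxcr3, the receptor, fell from 12.8 to 5.43 FPKM, or 2.36-fold (change -1.10), and also lost its call with a pseudocount of 5 (-0.77). The Cxcl9 to Cxcr3 ratio was 0.595 in WT and 0.594 in Postn-DTR.

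Irf1 (ENSMUSG00000018899, chr11:53770014-53778374 on the plus strand) was the only transcription factor among the 10 genes and the second most abundant. Its level was 63.5 FPKM for WT and 55.4 for Postn-DTR, 87.2% of WT (counting interval 82.6 to 92.1%) and a change of -0.19. Of the 7 other interferon regulatory factors compared, 4 were below 0, with a median change of -0.04 that became -0.37 at equal totals without the acinar genes. Irf2, which competes with Irf1 for its sites, was at 37.3 and 36.4, and Irf8, a factor of macrophages and dendritic cells, at 51.1 and 35.2. The only one called was Irf4, a factor of plasma cells and activated lymphocytes and macrophages, which rose from 13.3 to 41.0 FPKM.

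The 3 IRGs had nearly equal FPKM in both libraries. Igtp, also known as Irgm3, and Irgm1 belong to the regulatory IRGs that hold the effector IRGs inactive on the cell's own membranes, and Iigp1, also known as Irga6, is an effector. Igtp (ENSMUSG00000078853, chr11:58199556-58207591 on the plus strand) was at 38.2 FPKM in WT and 39.2 in Postn-DTR. Irgm1 (ENSMUSG00000046879, chr11:48861968-48871683 on the minus strand) was at 33.2 and 32.97, and Iigp1 (ENSMUSG00000054072, chr18:60376027-60392634 on the plus strand) at 29.3 and 28.8. In percent of WT these were 102.4 for Igtp (counting interval 95.1 to 110.3), 99.2 for Irgm1 (92.1 to 106.6) and 98.1 for Iigp1 (91.3 to 105.4). Each interval included equality, and the 3 together came to 100.8 and 100.9 FPKM. Their changes of 0.03, -0.01 and -0.03 were smaller than the shift between scalings. Igtp turned to -0.042 at equal 75th percentiles and to -0.30 at equal totals without the acinar genes, where Irgm1 was at -0.34 and Iigp1 at -0.36, close to the shift of all genes.

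The 4 GBPs differed among themselves, with Gbp2 above and the others below their WT levels as deposited. Gbp2 (ENSMUSG00000028270, chr3:142620602-142638008 on the plus strand) was the most abundant of the 10 genes, with 68.7 FPKM in WT and 74.1 in Postn-DTR (107.8% of WT, counting interval 103.1 to 112.8%) and a change of 0.11, which turned to -0.23 at equal totals without the acinar genes. Gbp3 (ENSMUSG00000028268, chr3:142560026-142573209 on the plus strand) was at 32.6 and 23.8, or 72.9% of WT (counting interval 68.0 to 78.3%). Gbp7 (ENSMUSG00000040253, chr3:142530342-142550149 on the plus strand) was at 10.4 and 7.60, or 73.4% (64.5 to 83.4%). Gbp6 (ENSMUSG00000104713, chr5:105270702-105293698 on the minus strand) was at 16.4 and 10.6, or 64.8% (58.3 to 71.8%). The changes of these last 3 were -0.44, -0.40 and -0.58, none of them called, and all were below 0 under every scaling and pseudocount tried. With a threshold of 1.5-fold on the change, 8.84% of all genes compared were lower, and of the 10 genes still 1, Cxcl9. Gbp6 was 1.54-fold lower as a ratio of FPKM, but with the added 1 its change fell just short of that threshold. The ratio of Gbp2 to Gbp3 was 2.104 in WT and 3.11 in Postn-DTR. The 7 GTPases together had 5 changes below 0 and a median of -0.03.

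**Figure D2:**
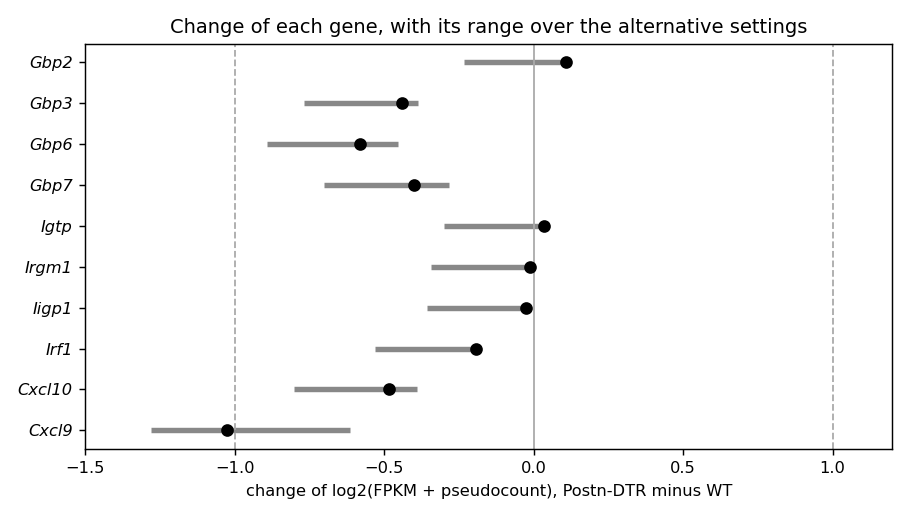
Change of each of the 10 genes on the log2(FPKM + 1) scale, Postn-DTR minus WT (points), with the range over the alternative pseudocounts, scalings and expression minimums (grey bars) and dashed lines at 2-fold. Cxcl9 (-1.03, range -1.28 to -0.62) was the only gene to cross the lower line, and the bars of Gbp2 and Igtp alone crossed 0, since both were above 0 as deposited and below it at equal totals without the acinar genes.

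**Figure D3:**
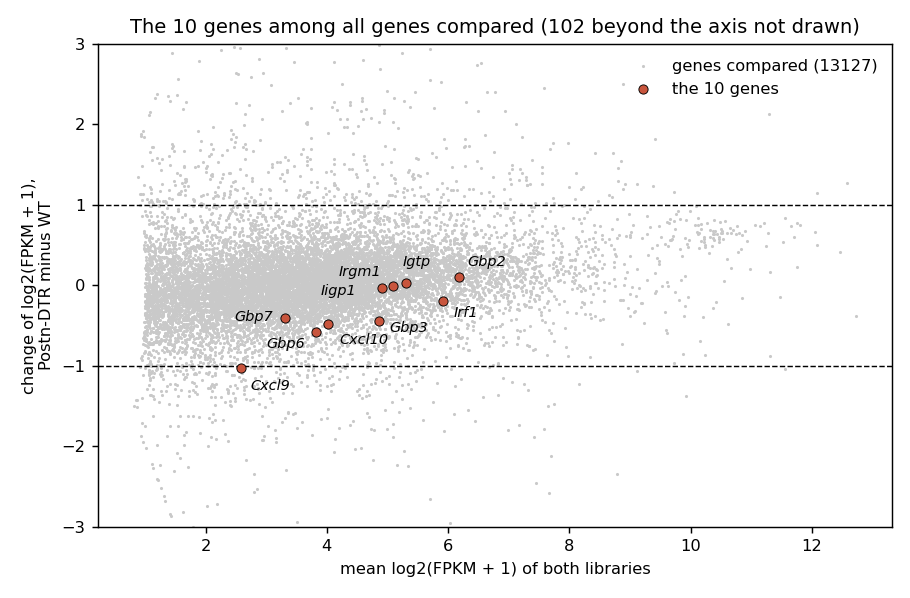
Mean log2(FPKM + 1) of both libraries (horizontal axis) against the change (vertical axis) for the 13127 genes compared (grey) and the 10 genes (red), with dashed lines at 2-fold and 102 genes beyond a change of 3 in either direction not drawn. The interquartile range of all genes lay between -0.24 and 0.28, and 5 of the 10 genes were inside it.

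Several of these genes share sequence with relatives, which limits how far single values can be read. Of the 50-base words in the protein-coding transcripts of Gbp6, 90.2% also occurred in transcripts of another gene, all of them in Gm43302 and some also in Gbp10. For Gbp7 the share was 12.7%, for Igtp 11.8% (all with Irgm2, whose annotated span overlaps Igtp), for Gbp3 3.83%, for Iigp1 3.20% and for Gbp2 2.07%. It was 0.782% for Irgm1, 0.493% for Cxcl9, and 0 for Irf1 and Cxcl10. How reads common to several genes were assigned was not given in the sources used here. Sums over a pair are not free of this either, since FPKM is divided by each gene's length and Gm43302 was not part of the sum. Gbp6 and Gbp10 together came to 18.8 FPKM for WT and 11.02 for Postn-DTR (58.6% of WT), and Igtp and Irgm2 together to 70.6 and 66.3 (94.0%).

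Most relatives of these GTPases lie beside them. GBP genes form a cluster on chromosome 3 and another on chromosome 5. The 5 genes on chromosome 3 summed to 127.0 FPKM for WT and 120.2 for Postn-DTR (94.6% of WT), and the 6 on chromosome 5 to 57.7 and 41.2 (71.4%). On chromosome 3, Gbp5, which promotes inflammasome activation, stood at 11.6 and 13.0, and Gbp2b, the gene next to Gbp2, at 3.67 and 1.68. On chromosome 5, Gbp10 fell from 2.44 to 0.412 (change -1.28) but is subject to the sharing described above, Gbp8 was at 8.94 and 4.45, Gbp4 at 13.1 and 10.3, and Gbp9 at 13.5 and 12.7. Of the IRG relatives, Irgm2, the third regulatory IRG, was at 32.3 and 27.1 and Ifi47, also known as Irg47, at 39.7 and 36.8. The near-identical Tgtp1 and Tgtp2 summed to 11.1 and 8.63, with Tgtp1 at 2.68 and 3.63 and Tgtp2 at 8.40 and 5.00. Gm4951, in the chromosome 18 cluster of Iigp1, was at 8.12 and 4.09, a change of -0.84 that was not called. It became -1.11 at equal totals without the acinar genes. In all, 17 further GBP and IRG genes were listed and 14 of them compared, of which 1 was called lower (Gbp10) and 0 higher, with 4 lower at equal totals without the acinar genes and 0 with a pseudocount of 5. Their median change was -0.25, and 12 of the 14 were below 0.

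**Figure D4:**
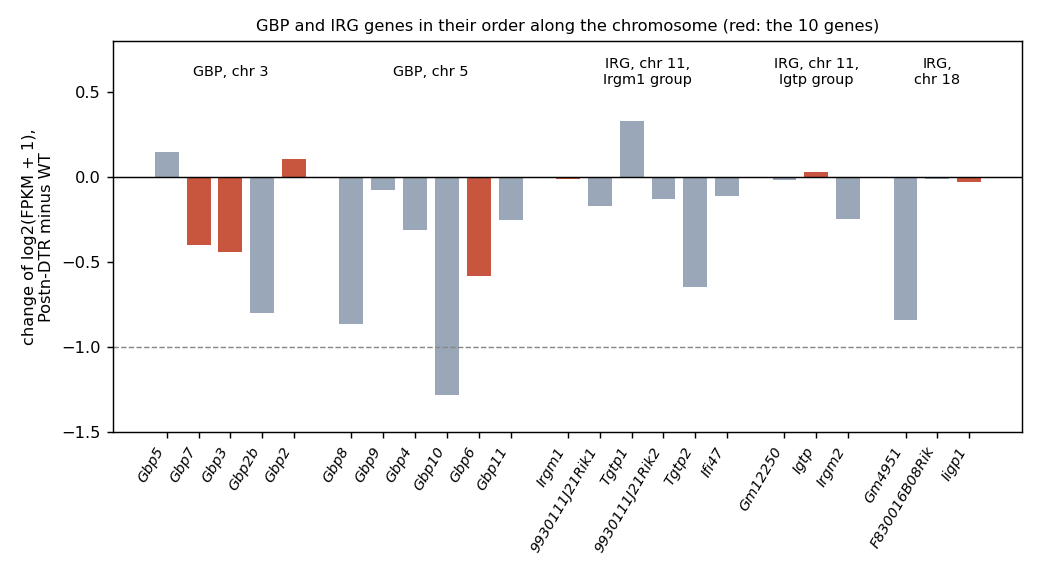
Change on the log2(FPKM + 1) scale, Postn-DTR minus WT, of the GBP and IRG genes in their order along chromosomes 3, 5, 11 and 18 (bars from 0; red for members of the 10 genes, grey for relatives), with a dashed line at 2-fold lower. Changes on chromosome 5 were all below 0, from -1.28 for Gbp10 to -0.08 for Gbp9, and the red bars of the 3 IRGs were close to 0.

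The steps above these genes in the pathway were examined next. Ifng itself was listed at 0.598 in WT and 0.330 in Postn-DTR, about 13.8 and 7.99 estimated reads and under the expression minimum. Of the 12 genes for interferon-gamma and its inducers, 7 were compared, with 1 called lower, 0 higher and a median change of -0.48. The called gene was Tbx21, the T-bet factor of interferon-gamma producing lymphocytes, which fell from 3.62 to 1.22 (change -1.06), a call lost with a pseudocount of 5 (-0.47). Il18, a cytokine that stimulates interferon-gamma release, was at 15.8 and 15.0. The receptor chains were close, with Ifngr1 at 121.4 and 133.1 and Ifngr2 at 34.0 and 38.4. Of the 10 genes for the receptor and its signalling, 0 were called lower and 1 higher, and their median of 0.12 turned to -0.21 at equal totals without the acinar genes. The gene called higher was Socs3, a feedback inhibitor of cytokine signalling that answers mainly to the IL-6 family. It rose from 17.8 to 143.4, or 8.07-fold. Socs1, the feedback inhibitor of the interferon-gamma receptor, was at 8.17 and 6.66.

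Further interferon-gamma targets went in both directions. Of 19 listed and 18 compared, 1 was called lower, 1 higher, and the median change was -0.19. Ciita, the master regulator of MHC class II genes, fell from 15.6 to 3.75, or 4.15-fold (change -1.80, and from -2.07 to -1.23 under other scalings and pseudocounts). Ccl5, a chemokine of T cells, NK cells and macrophages, rose from 102.2 to 207.0 (change 1.01), a call that was lost with a pseudocount of 5 and under every other scaling, down to 0.67 at equal totals without the acinar genes. The immunoproteasome subunit Psmb9 was at 88.9 and 56.5 and Psmb8 at 138.1 and 119.99. Cd274, which encodes PD-L1, was at 10.2 and 9.27. Type I interferon genes, many of which carry ISREs as the GBPs do, had 0 of 22 called in either direction and a median of -0.13. Of the 22, 13 were below 0, such as Isg15 at 29.7 and 22.9 and Mx1 at 4.67 and 2.74, and 9 above 0, such as Oasl2 at 39.4 and 54.3. The largest difference was that of Oasl1, at 3.48 and 7.88 (change 0.99), which was called higher with a pseudocount of 0.1. NF-kappaB targets were examined too, since NF-kappaB also acts on Irf1 and Cxcl10. Of these 13 genes, 0 were called lower and 7 higher, with a median of 1.44. With an expression minimum of 10 there were 4 higher and the median was 0.82, and with a pseudocount of 5 it was 0.94. Nfkbia, the inhibitor of NF-kappaB, rose from 87.6 to 240.04 FPKM and the neutrophil chemokine Cxcl1 from 1.78 to 34.9, while Tnf was at 3.76 and 2.26 and Nfkb2 at 42.8 and 29.6. The changes of Irf1 and Cxcl10 were -0.19 and -0.49.

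**Figure D5:**
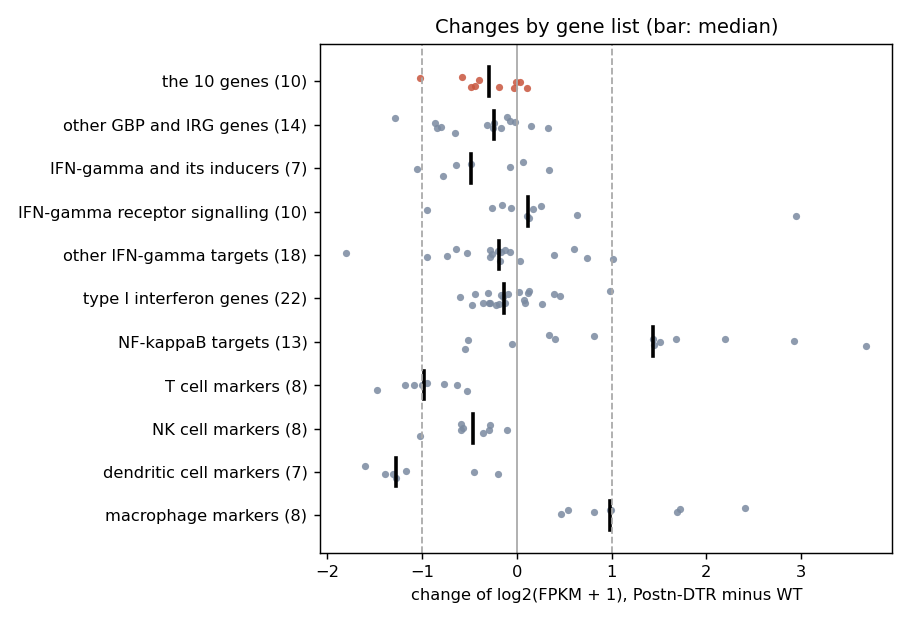
Change on the log2(FPKM + 1) scale, Postn-DTR minus WT, of each compared gene (points) in the 10 genes (red) and 10 other lists (grey; number of genes compared in brackets), with the median as a black bar and dashed lines at 2-fold. The median was -0.30 for the 10 genes, -0.98 for T cell markers and 1.44 for NF-kappaB targets.

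Markers of the cells that make or answer to interferon-gamma moved in both directions between the libraries. All 8 T cell markers were below 0, of which 4 were called lower, with a median change of -0.98. They summed to 85.6 FPKM for WT and 38.7 for Postn-DTR (45.2% of WT), and Cd3e fell from 15.6 to 6.82 and Cd4 from 11.3 to 3.41. The 8 NK cell markers were all below 0 with 1 called, and summed to 56.9 and 39.2 (68.9%). The 7 dendritic cell markers were all below 0 with 5 called, and summed to 53.2 and 24.7 (46.4%). The 8 macrophage markers were all above 0 with 3 called, and summed to 4334 and 7394 (170.6%). Most of this sum was Lyz2 (2459 and 3563), C1qa (726.8 and 1282) and C1qb (771.8 and 1536). The changes ran from 0.47 for Csf1r to 2.40 for Itgam, which rose from 46.8 to 251.9. Of the 7 fibroblast and FRC markers, Postn among them, 5 were below 0 and 3 called lower (Dpt, Ccl19 and Postn), and they summed to 538.8 and 268.6 (49.9%), with Aldh1a2 at 85.5 and 63.3. The 6 B cell markers were all below 0 with 3 called, and summed to 472.3 and 323.5 (68.5%). The 5 neutrophil markers in the files were all above 0 with 3 called, and summed to 346.4 and 680.5 (196.4%). The 6 endothelial markers had 0 called, with 3 below 0 and 3 above, and summed to 234.7 and 233.7. They ran from Kdr, at 22.4 and 13.6 (change -0.68), to Cldn5, at 13.9 and 19.7 (change 0.48). None of these markers was at 0 in either library. With a pseudocount of 5, the T cell, NK cell and dendritic cell markers called lower became 0 in each list, with medians still below 0, and the neutrophil markers called higher became 1. Beside these, the CXCR3 ligands summed to 61.8% of WT, the 4 GBPs among the 10 genes to 90.7% and the 3 IRGs to 100.1%. The part of these cell types in the values of the 10 genes was not tested, and with 1 library a genotype it cannot be told apart from a difference between mice.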

How the data were processed

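Whole omentum of WT and Postn-DTR mice, 1 library each, was compared 5 days after DT, grouped by the genotype label. RNA was isolated (miRNeasy) and libraries made (TruSeq stranded mRNA) per the labels. The authors deposited FPKM, with 1 value per gene symbol. The submitters' processing notes name TopHat2 2.1.1, Bowtie2 2.2.8, SAMtools 0.1.18, Cuffdiff 2.2.1 and mm10. The annotation and total depth were not given in the sources used here. Positions came from GENCODE M21 (GRCm38), which matched 95.7% of symbols, and promoter windows from RefSeq (GRCm38.p6).

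Changes were differences of log2(FPKM + 1) over genes averaging 1 FPKM or more, called at 2-fold, with no test. Fragment totals were fitted so that FPKM under 0.15 of genes with 1 annotated transcript became whole reads, up to 6. Of 343 such values in WT 81.0%, and of 313 in Postn-DTR 78.3%, lay within 0.1 of a whole read. The fit was checked on simulated libraries. Estimated reads used the shortest protein-coding transcript of at least 1000 bases, so they are approximate, and intervals are exact binomial (Clopper-Pearson, 95%). Alternatives were pseudocounts of 0.1 and 5, other scalings, other expression minimums and a 1.5-fold threshold. The named genes were the 10 genes, Postn and genes of the pathway and marker lists closest to them in role. The 10 genes and the lists were chosen with earlier results of these data known. Python 3.11.15, numpy 2.4.6, pandas 2.3.3, scipy 1.17.1 and matplotlib 3.10.9 were used.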

Additional observations from a re-analysis of the deposited data

How the results depend on the processing

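Of 50 changes of the 10 genes recomputed with other pseudocounts and scalings, 38 stayed within their counting interval and 12 moved beyond it. All 10 genes moved beyond it at equal totals without the acinar genes. Cxcl9, the only called gene, kept its sign throughout. Gbp2 turned negative at equal totals without the acinar genes, and Igtp did so there and at equal 75th percentiles. The count of 1 of the 10 genes at least 2-fold lower became 0 at a pseudocount of 5 and 0 at an expression minimum of 10, which leaves Cxcl9 out. It was 1 under the other alternatives, and the count of higher genes was 0 under all of them. The median change of -0.30 became -0.62 at equal totals without the acinar genes, where all genes shifted by -0.30, and -0.11 at the minimum of 10. Of all genes, 410 were lower, which became 643 with a pseudocount of 0.1, 168 with a pseudocount of 5, 730 at equal totals, 173 with the minimum of 10 and 1160 at 1.5-fold. The count of 509 higher changed to 287 at a pseudocount of 5, 294 at equal totals, 303 with the minimum of 10 and 1294 at 1.5-fold. A lower threshold raises such counts by construction, and a higher minimum or pseudocount lowers them. No paired analysis was possible because each genotype had 1 library. For the same reason no library could be left out, and the depth behind each value is an estimate.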
